A study of Drosophila melanogaster with 24 samples.

Results

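The genes described, called members below, are 30 sarcomere and muscle genes of Drosophila melanogaster, taken from a list of names that leaves out the actin genes. All 30 were found among 13922 protein-coding genes of the main chromosomes in the RefSeq gene table, 29 by symbol and 1, Unc-89, through a synonym of the gene annotated as Obsc. The study mapped sites of the clock proteins CLK (Clock) and CYC (Cycle), bHLH-PAS factors that activate transcription as a pair. Chromatin immunoprecipitation and sequencing (ChIP-seq) with an anti-GFP antibody was done in heads, testes and ovaries collected at ZT 10 h, 10 h after lights-on. Each protein was profiled in each tissue with 2 GFP and 2 input libraries, 24 in all, from 200 heads or 200 pairs of gonads per biological replicate. No genotype, age, sex of the flies that gave heads, or design of the GFP tag is given in the sources used here.

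The sarcomere is the repeating unit in which myosin thick filaments slide past thin filaments of actin, tropomyosin and troponin. Z discs anchor the thin filaments, and giant elastic proteins link the thick filaments to the Z disc. Muscle is present in all the tissues sampled: the head holds the muscles of the proboscis and pharynx, the testis is wrapped in a muscle sheath, and ovaries and ovarioles are enclosed by contractile sheaths. Whole organs were used, so the cell type in which a site was bound cannot be told apart.

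Each pairing of protein and tissue had 1 peak list, 6 in all. The CLK lists held 1016 peaks (head), 2491 (testis) and 351 (ovary), and the CYC lists 394, 1583 and 1975. A list gave the position of each peak and nothing of its height, and read depth was unknown. A gene without a listed peak is therefore a gene where none was called, not one shown to be unbound. With 1 list for each protein and tissue there was no spread between replicates, and no test was run. The intervals below are 95% exact Clopper-Pearson intervals that cover counting error only. In the head lists vri, tim and per, direct clock targets, held 6, 2 and 3 CLK peaks and 5, 2 and 2 CYC peaks. The testis and ovary lists had few: tim held 1 CLK testis peak, per 1 CYC ovary peak and vri none. These genes therefore serve as a check of the head lists only.

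A peak was counted for a gene when its midpoint lay in the gene or within 1 kb of it. Peaks within 1 kb of either gene end were kept apart from body peaks, which lay inside the gene and over 1 kb from both ends. The gene table gave no strand, so the end at which transcription starts was not told apart. By this rule 47 peaks lay at 17 of the 30 genes, and 13 genes had no peak in any list. Of the 47, 35 were body peaks and 12 lay at gene ends. Single lists gave peaks at 9 of these genes, 2 lists at 5 genes and 3 lists at 3 genes, Tm1, tmod and Msp300.

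**Figure D1:**
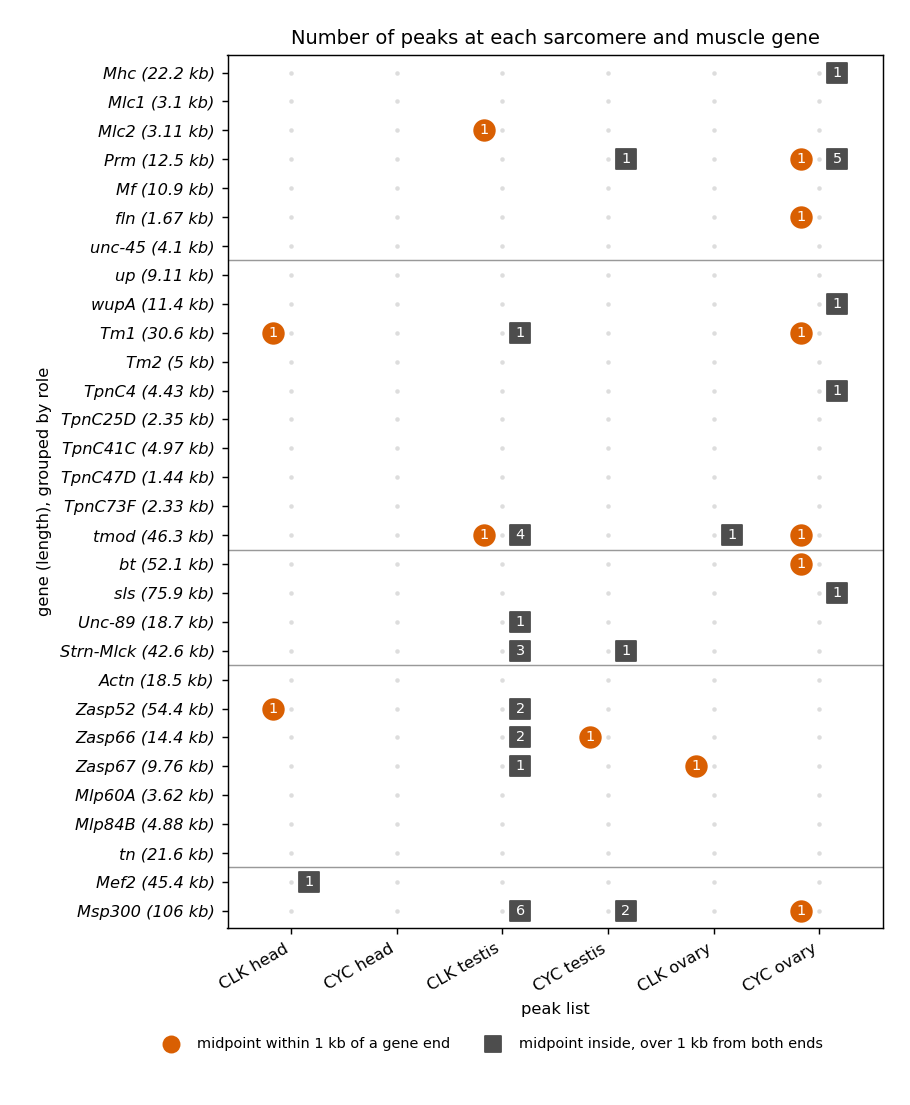
Number of peaks at each of the 30 genes (rows, with gene length in kb, grouped from top to bottom as thick filament, thin filament, giant proteins, Z disc and its neighbours, and nuclear genes) in each of the 6 peak lists (columns). Orange circles count peaks with the midpoint within 1 kb of a gene end and grey squares count body peaks; the 22 CLK testis and 15 CYC ovary peaks make up most of the 47, and the CYC head column is empty.

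The peaks fell mostly in 2 lists. CLK of testis gave 22 peaks at 9 of the 30 genes (30%, interval 14.7 to 49.4%), and 17.8% of all protein-coding genes had such a peak. CYC of ovary gave 15 peaks at 10 genes (33.3%, 17.3 to 52.8%), beside 11.1% of all genes. CYC of testis gave 5 peaks at 4 genes (13.3%, 3.76 to 30.7%; all genes 10.1%), CLK of head 3 peaks at 3 genes (10%, 2.11 to 26.5%; all genes 9.07%) and CLK of ovary 2 peaks at 2 genes (6.67%, 0.818 to 22.1%; all genes 1.73%). None of the 30 was given a CYC head peak (0%, upper bound 11.6%), where 4.13% of all genes had one. As a share of each list, peaks at these genes made up from 0% of CYC head to 0.883% of CLK testis (0.554 to 1.33%) and 0.759% of CYC ovary (0.426 to 1.25%).

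Peaks of CLK testis and CYC ovary, the lists that held most, were found together at 3 members, 33.3% of those with a CLK testis peak and 30% of those with a CYC ovary peak. Over all protein-coding genes 422 had both, 17% and 27.2% of the respective genes, so nothing about the members is read from this overlap. Of the 9 genes with CLK testis peaks, Tm1, tmod and Msp300 had CYC ovary peaks as well, while Mlc2, Strn-Mlck, Unc-89, Zasp52, Zasp66 and Zasp67 did not. Mhc, Prm, TpnC4, bt, fln, sls and wupA had CYC ovary peaks and no CLK testis peak. By role, CYC ovary peaks lay at 3 of 7 thick filament genes, 4 of 10 thin filament genes, 2 of 4 genes for giant proteins and 0 of 7 genes of the Z disc and its neighbours. CLK testis peaks lay at 1, 2, 2 and 3 genes of the same groups. Of the 2 nuclear genes, Msp300 had peaks of both lists and Mef2 of neither. Over all protein-coding genes the shares were 11.1% for CYC ovary and 17.8% for CLK testis. These are counts of few genes, the groups were not matched for gene length, and no difference between the groups was tested.

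Gene length has to be read beside these counts, since long genes offer more room for peaks. The 30 genes ranged from 1.44 kb (TpnC47D) to 106 kb (Msp300), with a median of 11.1 kb, while the median of all protein-coding genes was 2.16 kb. The 17 genes with a peak had a median length of 22.2 kb and the 13 without a peak one of 4.88 kb. Of the 11 genes under 5 kb, 3 had a peak in any list (27.3%), and 32.3% of all genes of that class did. The shares were 5 of 9 (55.6%) beside 53.5% between 5 and 20 kb, and 9 of 10 (90%) beside 71.6% at 20 kb or longer. Applied to the 30 genes, the shares of all genes in these 3 length classes would give 15.5 genes with a peak in any list, close to the 17 counted. In single lists the shares would give 5.74 genes for CYC ovary (10 counted), 6.93 for CLK testis (9 counted), 4.40 for CYC testis (4 counted), 4.66 for CLK head (3 counted), 1.18 for CLK ovary (2 counted) and 1.87 for CYC head (0 counted). CYC ovary stood farthest above the count from the length classes. In the longest class CYC ovary peaks lay at 6 of 10 genes and at 33.4% of all genes.

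**Figure D2:**
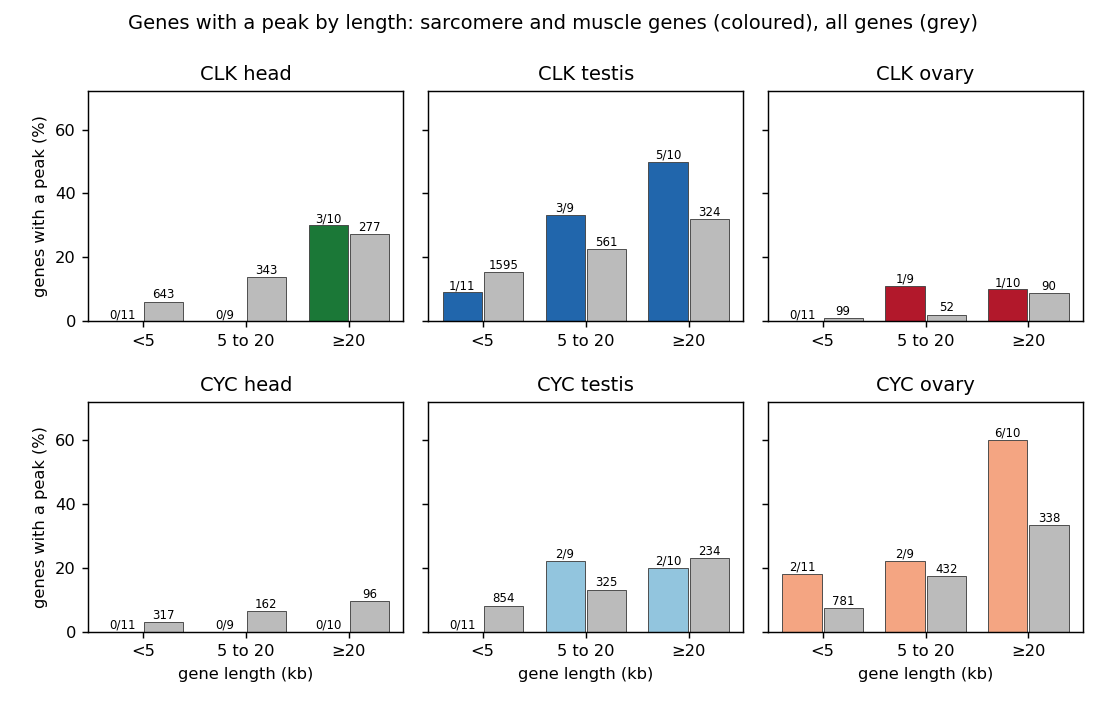
Percentage of genes with a peak (vertical axis) by gene length class in kb (horizontal axis) for each peak list, with the sarcomere and muscle genes in colour and all protein-coding genes in grey; numbers above the bars are genes with a peak, of the class for the coloured bars. The share rises with gene length in the grey bars of each list, and at 20 kb or longer the coloured bar reaches 6 of 10 genes in CYC ovary and 5 of 10 in CLK testis.

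Peaks at gene ends and in gene bodies were spread differently over the lists. CYC ovary peaks lay at an end of 6 of the 30 genes (20%, 7.71 to 38.6%), namely Prm, fln, Tm1, tmod, bt and Msp300, beside 7.69% of all genes. The length classes would give 2.67 genes. CLK testis peaks lay at an end of 2 genes, Mlc2 and tmod (6.67%, 0.818 to 22.1%; all genes 11.7%), close to the 2.68 genes from the length classes. CLK head peaks were at ends of Tm1 and Zasp52 (6.67%; all genes 7.02%), the CYC testis peak of Zasp66 and the CLK ovary peak of Zasp67 were the only end peaks of their lists (3.33% each; all genes 6.32% and 0.876%), and CYC head had none (all genes 3.38%). Body peaks were possible in the 28 genes longer than 2 kb. CLK testis gave 20 of them, in 8 genes (28.6%, 13.2 to 48.7%), beside 13.2% of all genes longer than 2 kb. CYC ovary gave 9 in 5 genes (17.9%, 6.06 to 36.9%; all genes 7.70%), CYC testis 4 in 3 genes (10.7%; all genes 7.88%), and CLK head and CLK ovary 1 each (3.57%; all genes 4.55% and 1.70%). CYC head gave none (all genes 1.51%). For body peaks no count from the length classes was made, so these shares are not adjusted for gene length.

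Inside genes of 20 kb or longer, the density of CLK testis peaks was higher at the members than over all genes of that length, a difference that was not tested. The 10 long members span 0.497 Mb and held 16 CLK testis peaks, or 32.2 per Mb. All 937 protein-coding genes from 20 kb up to the length of Msp300 held 10.3 per Mb, a peak being counted once for every gene that contains it. Leaving out each of the 10 genes in turn gave 25.6 per Mb (without Msp300) to 38.0 per Mb (without sls). Without peaks that also lie in another protein-coding gene the density was 24.1 per Mb, and that of all genes of 20 kb or longer was 6.47 per Mb, from 8.73 per Mb with such peaks. CYC ovary peaks inside the same 10 genes numbered 3, or 6.03 per Mb, beside 11.1 per Mb. The CYC ovary peaks of Msp300, Tm1 and bt were left out of this density. Their midpoints lay 2, 13 and 818 bp outside the genes, so the low value depends on where the gene boundary is drawn. Peaks of all genes were counted by the same rule. Over the whole 0.643 Mb of the 30 genes, CLK testis had 32.6 per Mb, beside 21.9 per Mb in all protein-coding genes. CYC ovary had 17.1 per Mb, beside 13.5 per Mb, and 9.51 per Mb without Prm. These whole-set values are not matched for gene length. Under 5 kb the members had 27.8 CLK testis peaks per Mb (1 peak), beside 54.1 per Mb in all genes of that class. Between 5 and 20 kb they had 36.3 per Mb, beside 24.5 per Mb. The other 4 lists had 0 to 6.03 per Mb in the long members and 1.92 to 6.53 per Mb in all genes of that length range.

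**Figure D3:**
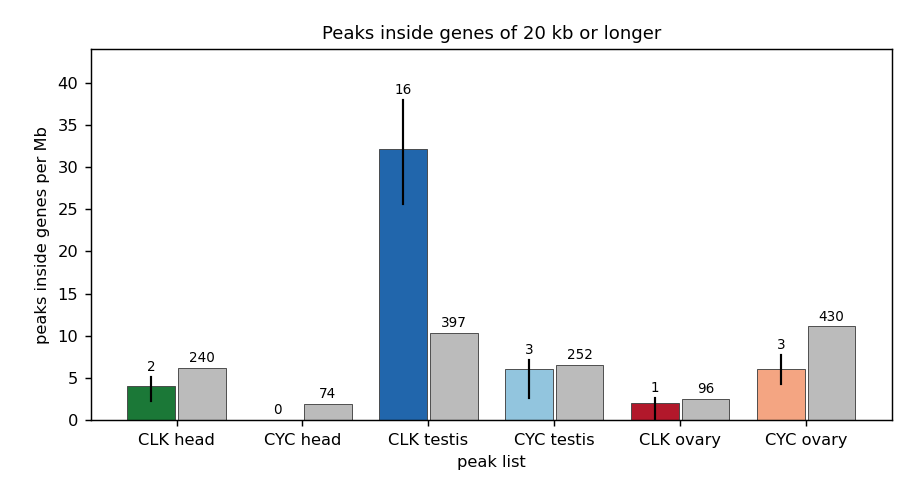
Peaks with the midpoint inside genes of 20 kb or longer, per Mb of gene (vertical axis), for each peak list (horizontal axis), in the 10 long sarcomere and muscle genes (colour) and in all protein-coding genes from 20 kb up to the length of Msp300 (grey). Numbers are peaks and black lines run from the lowest to the highest value when each of the 10 genes is left out in turn; CLK testis stands at 32.2 beside 10.3 per Mb, while the coloured bar is below the grey one in the other lists. The CYC ovary peaks of Msp300, Tm1 and bt have midpoints outside these genes and are not counted.

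Most peaks at thick filament genes were CYC ovary peaks, 8 of 10, and 6 of them lay at Prm. Prm encodes paramyosin, a coiled-coil protein in the core of insect thick filaments, and spans 3L 8732858 to 8745310. It held 6 CYC ovary peaks, at 8736692 to 8736954, 8737924 to 8738545, 8740751 to 8741051, 8742018 to 8742337, 8743991 to 8744256 and 8745902 to 8746102. Positions here and below are printed as deposited, on build dm6, and starts may be counted from 0 or from 1. The first 5 of these peaks lay inside the gene and the last 692 bp past its end, and neighbouring midpoints were 1.28 to 2.67 kb apart. Their widths ran from 200 to 621 bp with a median of 282.5 bp, below the list median of 312 bp. This run was singled out after its values were seen. For its peaks at 8736692 and 8737924 the nearest end of another protein-coding gene was that of Cp16, 4224 and 5635 bp from the midpoints. DNA copy number of this stretch in ovary was not examined. Of all protein-coding genes, 9 had 6 or more CYC ovary peaks. Elsewhere 6 CYC ovary peaks fell within as short a stretch as the 9.41 kb of the Prm run in several places: 34 separate stretches were counted in all, 18 of them in the histone gene cluster, and that of Prm was 1 of the other 16. A CYC testis peak at 8743806 to 8744080 shared 89 bp with the fifth ovary peak, and no CLK peak was listed at Prm in any tissue.

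The other thick filament genes had single peaks or none. Mhc, the only muscle myosin heavy chain gene of the fly, held 1 CYC ovary body peak of 577 bp, 4.81 kb from its nearest end. fln, which encodes the thick filament protein flightin of the flight muscle, had a CYC ovary peak across its higher-coordinate end (3L 19991060 to 19991364, 304 bp), its midpoint 8 bp from that end and 675 bp from an end of CG7646. Mlc2, the regulatory light chain gene, had a CLK testis peak (3R 30173438 to 30173667, 229 bp) whose midpoint lay 998 bp inside its end, at the limit of the 1 kb window. Mlc1 (the essential light chain), Mf (myofilin) and unc-45 (a myosin chaperone) had no peak in any list. The nearest to Mlc1 was a CLK testis peak 1.30 kb outside it, and the nearest to unc-45 a CYC ovary peak 2.81 kb outside.

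Among thin filament genes, tmod and Tm1 carried most of the peaks. tmod encodes tropomodulin, which caps the pointed ends of thin filaments, and spans 3R 30532607 to 30578905. It held 5 CLK testis peaks, at 30535278 to 30535495, 30557533 to 30557799, 30559865 to 30560109, 30564448 to 30564706 and 30579545 to 30579744. They were 199 to 266 bp wide, all below the list median of 275 bp. The middle pair, at 30557533 and 30559865, also lay in CG34155, and the last, outside tmod, lay in CG9702 and closer to an end of that gene (215 bp) than to that of tmod (739 bp). Near the same end of tmod were a CLK ovary peak (30577166 to 30577506, 340 bp) and a CYC ovary peak (30578444 to 30578643, 199 bp). The midpoints of these last 2 were 1207 bp apart and the peaks did not meet, so tmod was the only one of the 30 genes with both proteins in ovary but without a common site. Of all protein-coding genes, 8 had 5 or more CLK testis peaks, with tmod and Msp300 among them.

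Tm1 and Tm2, the adjacent tropomyosin genes, differed in what they were given. Tm1 (3R 15278220 to 15308779) had 1 peak in each of 3 lists, and the closest pair had midpoints 11516 bp apart. Its CLK head peak (15277168 to 15277490, 322 bp) lay 891 bp outside the lower-coordinate end, within MRG15 and closer to an end of l(3)neo43, at 652 bp. The CLK testis peak (15288721 to 15288969, 248 bp) lay 10.6 kb inside Tm1. The CYC ovary peak (15308625 to 15308959, 334 bp) lay across the higher-coordinate end, with its midpoint 13 bp past it, in the 1.41 kb stretch that separates Tm1 from Tm2. This peak was 1401 bp from Tm2 and was not counted for it, and Tm2 had no peak within 1 kb. Of the remaining thin filament genes, wupA, which encodes troponin I, had a 199 bp CYC ovary peak 1.63 kb inside its end. TpnC4, a troponin C gene of the flight muscle, had a 241 bp CYC ovary peak that lay within Ugt50B3 as well. The other 4 troponin C genes, TpnC25D, TpnC41C, TpnC47D and TpnC73F, and the troponin T gene up had no peak. These 4 troponin C genes are 1.44 to 4.97 kb long.

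**Figure D4:**
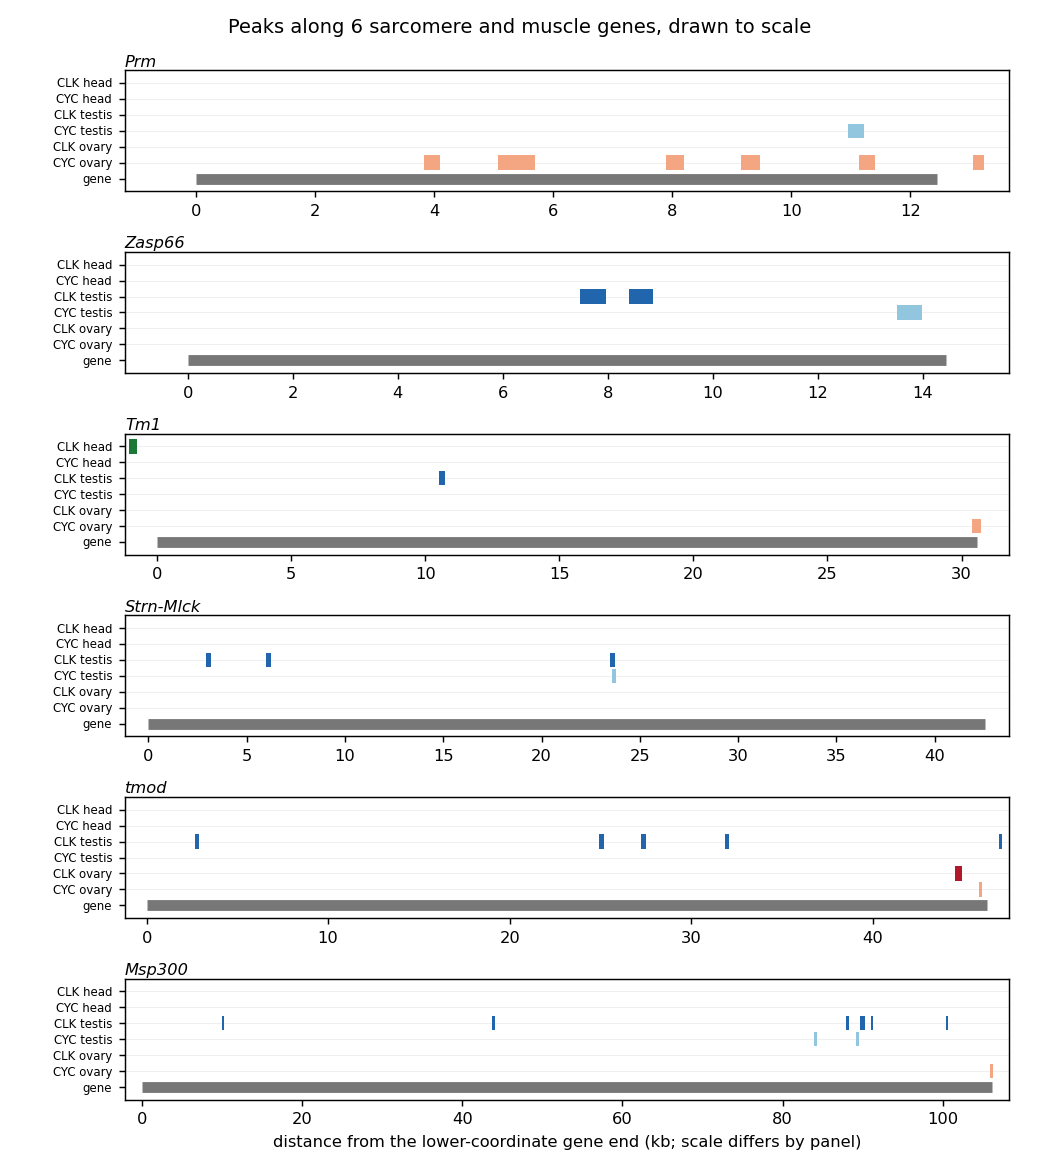
Peaks of the 6 lists (rows, coloured blocks at their true width) along Prm, Zasp66, Tm1, Strn-Mlck, tmod and Msp300, against the distance in kb from the lower-coordinate end of each gene (grey bar; the scale differs between panels). Prm shows a run of 6 CYC ovary peaks, Strn-Mlck a CLK and a CYC testis peak at the same place, and Msp300 a group of testis peaks between 84.1 and 91.2 kb.

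All 4 genes for giant proteins had a peak, each in testis or in ovary and none in both. Of all protein-coding genes, 53.5% had a peak in any list at 5 to 20 kb, the class of Unc-89. The share was 71.6% at 20 kb or longer, the class of bt, sls and Strn-Mlck. Nothing about giant proteins is read from the count of 4. bt encodes projectin, a titin-like kinase of the connecting filaments, and had a CYC ovary peak 818 bp outside its lower-coordinate end (chromosome 4, 723351 to 723812, 461 bp). sls encodes the titin-like protein Sallimus, and its CYC ovary peak (3L 2112256 to 2112892, 636 bp) was the widest of that list at these genes, 3.04 kb inside the higher-coordinate end. Unc-89, the fly obscurin gene, had 1 CLK testis peak of 315 bp, 1.11 kb inside an end. Strn-Mlck encodes the Stretchin and myosin light chain kinase proteins and held 3 CLK testis peaks (2R 15949849 to 15950103, 15952940 to 15953181 and 15970407 to 15970655, 241 to 254 bp). The last of them shared 161 bp with the CYC testis peak of the gene (15970494 to 15970713, 219 bp), their midpoints 72 bp apart. The site lay 23.6 kb from the lower-coordinate end by the CLK midpoint, and the nearest end of another protein-coding gene was 13895 bp from the CLK midpoint.

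That site was the only place at the 30 genes where peaks of CLK and CYC met. Of the 5 CYC testis peaks at these genes 1 met a CLK testis peak, as did 14.3% of the whole CYC testis list. Neither of the 2 CLK ovary peaks met a CYC ovary peak, beside 31.3% of the CLK ovary list, and none of the 3 CLK head peaks met a CYC head peak, beside 11.5% of the CLK head list. Between tissues, only the CYC peaks of testis and ovary at Prm met (13.3% of the CYC testis list met an ovary peak). CLK peaks of head and testis were both present at Tm1 and Zasp52 and those of testis and ovary at tmod and Zasp67, but at other positions. In the whole lists such meetings were the minority too, with 2.85% of CLK head peaks and 21.1% of CLK ovary peaks meeting a CLK testis peak. In all, 43 of the 47 peaks met no peak of another list, and the share of each whole list that met none would give 38.4. None of the 47 lay in a region called in 4 or more lists, as did 1.32% of the 7810 peaks of all lists.

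The Z disc genes with peaks were the 3 Zasp genes, which encode PDZ domain proteins of the Z disc. Zasp66 (3L 8624371 to 8638813) held 2 CLK testis peaks of 503 and 456 bp, at 8631839 to 8632342 and 8632783 to 8633239, and both also lay within Cdc6, a DNA replication gene, at 581 and 1058 bp from an end of it. Its CYC testis peak (8637875 to 8638362, 487 bp) lay 694 bp inside the higher-coordinate end and was the widest of that list at these genes. The CLK and CYC peaks of Zasp66 were 5107 bp apart. Zasp52 (2R 15762565 to 15817004) held 2 CLK testis peaks, at 15795245 to 15795490 and 15796166 to 15796420, and a CLK head peak across its higher-coordinate end (15816869 to 15817111, 242 bp), and all 3 also lay in the overlapping gene tun. Zasp67 (3L 9787933 to 9797687) had a CLK ovary peak 293 bp outside its lower-coordinate end (9787435 to 9787844, 409 bp), and a CLK testis peak of 299 bp 1.60 kb inside that end, both also within CG32052. Actn (alpha-actinin), the muscle LIM protein genes Mlp60A and Mlp84B, and tn, which encodes a TRIM and NHL domain protein, had none. Of the 10 members of 20 kb or longer, tn (21.6 kb) was the one without a peak.

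Msp300 and Mef2 were the members that act at the nucleus. Msp300 encodes the fly nesprin, a giant spectrin-repeat protein that links the nuclear envelope to the cytoskeleton and the Z discs, and spans 2L 5100877 to 5207002. It held 9 peaks, the most of the 30 genes. The 6 CLK testis peaks were at 5110951 to 5111199, 5144602 to 5145031, 5188851 to 5189216, 5190504 to 5191141, 5191908 to 5192160 and 5201223 to 5201528. The fourth, at 637 bp, was the widest CLK testis peak at these genes, and 3 genes of all protein-coding genes had 6 or more CLK testis peaks. The 2 CYC testis peaks were at 5184824 to 5185164 and 5190039 to 5190461, and the second ended 43 bp before the widest CLK peak began, so the peaks did not meet. From 84.1 to 91.2 kb along the gene there were thus 5 testis peaks of either protein. A CYC ovary peak (5206802 to 5207206, 404 bp) lay across the higher-coordinate end, its midpoint 2 bp outside and 263 bp from an end of Cyp28d2, a cytochrome P450 gene.

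Mef2 encodes the MADS-box activator of muscle genes, which in the fly also acts in clock neurons. Its single peak was a CLK head peak (2R 9929625 to 9930132, 507 bp), the widest of that list at these genes, 16.4 kb inside the gene. A CLK testis peak lay 1.66 kb outside Mef2 and was not counted. Other peaks just beyond the window were a CLK testis peak 1.26 kb outside Zasp67 and a CYC testis and a CYC head peak 1.34 and 1.47 kb outside Msp300, while those just inside it were the CLK head peak of Tm1 at 891 bp and the CYC ovary peak of bt at 818 bp.

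Widths of the peaks at these genes were spread around the medians of the whole lists. The lowest, median and highest widths were 199, 254 and 637 bp for CLK testis, with a list median of 275 bp. They were 199, 304 and 636 bp for CYC ovary, with a list median of 312 bp. The 5 CYC testis peaks had 219, 340 and 487 bp (list median 272 bp) and the 3 CLK head peaks 242, 322 and 507 bp (list median 285 bp). The 2 CLK ovary peaks of tmod and Zasp67 were 340 and 409 bp wide (list median 295 bp). The widest peaks of the whole lists measured 2020 bp (CLK head) to 15534 bp (CLK testis), and the widest at these genes 637 bp.

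**Figure D5:**
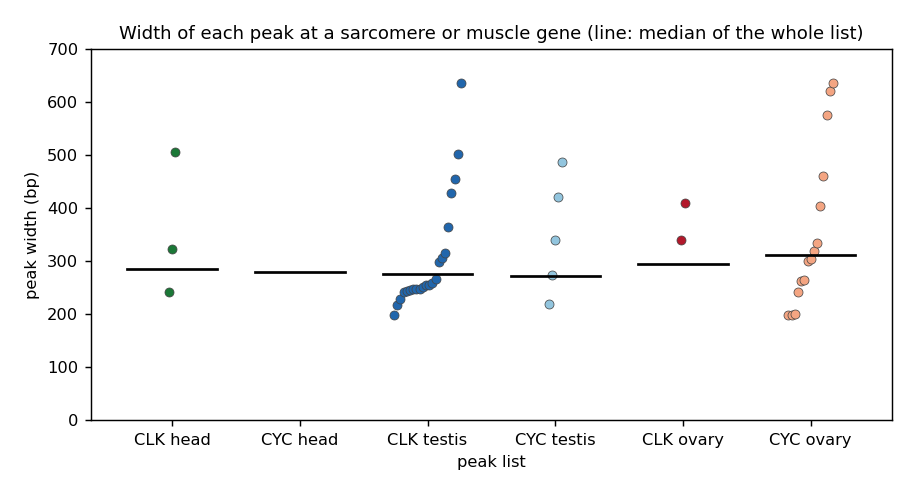
Width in bp (vertical axis) of each of the 47 peaks at the sarcomere and muscle genes, by peak list (horizontal axis); points are single peaks and black lines the median width of the whole list. Points lie on both sides of the line in CLK head, CLK testis, CYC testis and CYC ovary, both CLK ovary points lie above it, and there is no point in CYC head.

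A share of the peaks may belong to neighbours or overlapping genes. Of the 47 midpoints, 40 lay inside the member and 12 inside another protein-coding gene, and 8 lay within 1 kb of an end of another gene. Of the 12 peaks at an end of a member, 2 were closer to the end of another gene, the CLK head peak of Tm1 and the CLK testis peak of tmod. Which gene, if any, a peak acts on was not tested.

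Other muscle genes, 46 in 6 lists and with a median length of 21.8 kb, were counted by the same rule. They had CLK head peaks at 10 genes (21.7%), CYC head peaks at 4 (8.70%), CLK testis peaks at 12 (26.1%), CYC testis peaks at 12 (26.1%), CLK ovary peaks at 2 (4.35%) and CYC ovary peaks at 10 (21.7%). The shares of all genes in the 3 length classes would give 8.93, 3.40, 12, 8, 2.49 and 11 genes in the same order, so these counts lay near those of genes of like length in all lists but CYC testis. Peak counts are given for at most 3 genes with the most peaks in each of these gene lists, and not for genes tied beyond that number. Other genes are named only for their length or for having no peak.

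Among 10 genes for myogenic factors and splicing, 5 had a CLK head peak, where the length classes would give 2.12. Of these 5, twi (63.0 kb), hth (132 kb), bru1 (138 kb) and mbl (163 kb) are in the longest class. All protein-coding genes of that class have a median length of 37072 bp. The fifth, vg, is 15.2 kb long, and a part of gene length within the classes was not tested. twi, which encodes the mesoderm regulator Twist, had 1 CLK head, 3 CLK testis and 2 CYC testis peaks. mbl, the gene of the splicing regulator Muscleblind, had 3 CLK head, 1 CYC head and 1 CLK testis peak, and bru1, which encodes a splicing regulator of flight muscle, 1 CLK head, 2 CLK testis and 1 CYC testis peak. Of 8 myoblast fusion genes, 5 had a CYC testis peak, where the length classes would give 1.55. They were kirre (394 kb), rols (56.6 kb), hbs (30.7 kb), Vrp1 (16.5 kb) and blow (6.59 kb). The longest class, which holds kirre, rols and hbs, has no upper limit, and a part of gene length was not tested. kirre, a cell adhesion gene, had peaks of all 6 lists, hbs, another adhesion gene, had 1 CYC testis and 2 CYC ovary peaks, and Vrp1, an actin regulator, had 1 CLK head and 1 CYC testis peak.

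Of 7 sarcomere assembly genes, 2 had a peak in any list. Such a peak was found at 32.3% of all genes under 5 kb, 53.5% of those of 5 to 20 kb and 71.6% of longer ones. Fhos, a formin gene of 45.1 kb, had 1 CLK and 3 CYC peaks in testis and 1 CLK and 4 CYC peaks in ovary, and sals, which acts at thin filament ends, had 1 CLK and 1 CYC testis peak. Of 7 genes of excitation and calcium handling, 3 had a CYC testis peak and 3 a CYC ovary peak, beside 1.32 and 1.86 from the length classes. Ca-beta, a calcium channel subunit gene of 47.4 kb, had 1 CLK testis, 1 CYC testis and 2 CYC ovary peaks. Of 11 integrin attachment genes, 3 had a CYC ovary peak, beside 2.58 from the length classes. For these 11 genes CLK head gave 1 beside 2.1 and CYC testis 0 beside 1.9. In that list parvin had a CLK and a CYC head peak at its end, and cher, which encodes a filamin, had 1 CLK testis and 1 CYC ovary peak. The 3 non-muscle myosin genes zip, sqh and Mlc-c had no peak in any list, where the length classes would give 0.108 to 0.626 in single lists. Other counts also lay below those from the length classes. Myogenic factors and splicing had 1 gene with a CYC ovary peak, beside 2.6. Sarcomere assembly had 0 with a CLK head peak, beside 1.01.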

How the data were processed

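Per the submitters' processing notes, the authors worked on build dm6 and used MACS2, Bowtie2, fastp, SAMtools, Picard, ChIPseeker and deepTools. Their settings, the threshold for peaks and the handling of replicates are not given in the sources used here. Per the labels' protocols, fragments of 100 to 500 bp were made by shearing, with 5% set aside as input. The deposited files are 6 lists of 3 columns, other than a count or a score: chromosome, start and end. They were matched to tissues by the initials in their names. The lowest end minus start was 199 bp. Overlap meant at least 1 bp in common. Gene positions came from a RefSeq table whose assembly, Release 6 plus ISO1 MT, is the one called dm6. Placement rules were tested on simulated data with Python 3.11.15, and intervals used SciPy. The planned search for the E-box motif needed sequence and was not run, and no sequence is shown. Alternatives changed the window, the placement of a peak, the peaks used and the overlap that counts as shared.

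The members, gene lists and alternatives were chosen with earlier results of these data known. Positions are given for members with peaks of 3 or more lists, the widest peak of each list, peaks that meet another list and peaks at gene ends. Positions of other peaks of the same genes, and those of Prm, were added after their values were seen.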

Additional observations from a re-analysis of the deposited data

How the results depend on the processing

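The choice of window and of peaks moved the counts, most of which are small. Of 85 alternative values for 27 counts, 62 stayed within 1.5 times the count and 23 did not. The 62 include counts of 0 that stayed at 0. They also include counts made without regions called in 4 or more lists. Those could not change, because no peak at the members lay in such a region. The 62 are therefore no measure of how stable the counts are. The alternative counts below were made for the members only, without the share of all genes under the same setting. They cannot show whether a difference from all genes holds under that setting. With the widest 50% of each list, genes with a peak fell to 4 for CLK testis and 6 for CYC ovary, genes with an end peak to 1 for CLK head, 0 for CLK testis and 3 for CYC ovary, and genes with a body peak to 4 for CLK testis and 3 for CYC ovary, and no member peak of CYC testis met CLK (0). With a window of 500 bp, end peaks lay at 1 gene for CLK head and 0 for CLK testis and CYC testis. With 3 kb, they lay at 7 genes for CLK testis, 3 for CYC testis, 2 for CLK ovary, 11 for CYC ovary and 1 for CYC head, the peak near Msp300, which was then the only gene with a CYC head peak (1). It was also the only one (1) when any base of a peak could lie in the window. Counting only the gene of the nearest end left 1 gene each for CLK head and CLK testis. Body peaks over 3 kb from both ends lay at 3 genes for CYC ovary and 0 for CLK ovary. With reciprocal overlap of 50%, the CYC peaks of testis and ovary at Prm no longer met (0). Without Prm, 9 genes had CYC ovary peaks.

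The alternatives that left out single genes, or peaks in other genes, were added after the data were seen. Smaller windows and shorter lists hold fewer peaks by construction, and other causes were not tested. CYC testis fell to 2.56 per Mb without Msp300, CLK head to 2.21 without Mef2, 2.26 without Zasp52 and 2.01 without peaks in other genes, and CLK ovary to 0 without tmod. No paired analysis was possible because the lists hold no values per replicate. Read depth is unknown, and a missing peak may be one below the caller's threshold.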

Other observations

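Prm and Fhos, which lie near each other on 3L, both had several CYC ovary peaks. Prm had 6, and Fhos, a formin gene outside the 30, had 4. The genes are 8.31 kb apart with 1 protein-coding gene, CG13306 (588 bp), between them, which had a CLK ovary peak (1) and no CYC peak within 1 kb. No CYC ovary peak over 1 kb from either gene lay between them. Fhos had 3 CYC testis peaks as well and Prm 1. The pair of genes was noticed after the values were seen, and whether the 2 runs are related was not tested. DNA copy number of this stretch of 3L in ovary was not examined, and Cp16 was the nearest other gene to part of the Prm run.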
